A study of Mus musculus with 18 samples.

Results

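The comparison of fresh conventional potato flour with water rests on 6 of the 18 mice of the series, chosen by their group labels alone. Of these, 3 mice received water (Ctr) and 3 received flour of conventionally grown potatoes with no storage in the label (PC). All were male, of the strain BALB/cOlaHsd and 8 weeks of age at the start, and ate standard chow freely. For 20 days the PC mice were gavaged daily with 30 mg of flour, made from whole tubers with the skin and given in water, and the controls were gavaged with water alone. The 3 mice of each group were taken from 12, and enterocytes were scraped from the jejunum, which lies between duodenum and ileum. RNA of each mouse was read on its own 1-colour Cy3 Agilent array. No group received a flour other than potato, so the comparison is of the whole flour with plain water. Of the other groups, 3 are used below: flour of organically grown potatoes (PO), flour of conventional potatoes kept under storage conditions (PCS), and 9 mixed pesticides, each at its acceptable daily intake and without flour (ADI), in mice of the same strain, sex and age and with the same 20 days. The remaining group received flour of organically grown potatoes kept under storage (POS). It is compared with nothing here but is one of the groups that set the shared spread, and the label of its mouse 3 gives day 27 in place of day 20.

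Jejunal enterocytes absorb fat, sugars and amino acids, package fat with apolipoproteins, and carry enzymes that modify foreign compounds from food. Potato tubers supply mainly starch, and their skin also holds glycoalkaloids, steroidal plant compounds that act on cell membranes. On a 1-colour array the intensity of a feature depends on how much of its RNA was present and on how bright the whole array is, so arrays are usually brought to a common scale before genes are compared.

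The table holds 6914 array features, of which 5021 have a value on every array. Names come only from the authors' deposited table of fold changes, which names 51 genes, and 43 of these have a value on every array. That table lists 27 genes for PC mice, 4 higher and 23 lower, chosen by the authors on these same arrays, so their direction is not independent evidence. Enterocyte identity could be checked on 1 of 11 marker genes only, the apolipoprotein gene Apoa1. No marker of goblet, Paneth, enteroendocrine, stem, B or myeloid cells or of stroma carries a name here. Of 5 T cell markers Cd2 is named and measured, and of 5 neuron and glia markers Sv2b and Nyap1 are. A lower value in scraped tissue can come from fewer cells of a type or from less RNA per cell, which cannot be told apart here.

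Every flour array was dimmer than every water array. The median intensity over the 5021 features was 168, 184 and 256 on the arrays of Ctr mice 1, 2 and 3, and 45, 103 and 68 on those of PC mice 1, 2 and 3. On the log2 scale the array medians averaged 7.64 ± 0.32 (SD, n = 3) for water and 6.09 ± 0.60 (SD, n = 3) for flour, and the groups did not overlap. The exact permutation test, two-sided, gave p = 0.1, which is the smallest value that 3 against 3 arrays allow. The median feature differed by -1.55 (log2) between the groups as deposited, which is 2.93-fold lower in flour mice, and 94.4% of all features were lower. The dimness was shared by features of every brightness: in 5 equal bins of features from dimmest to brightest, the median difference as deposited ran from -1.22 to -1.69. Across features the arrays ranked the RNAs alike, with Spearman correlations of 0.954 to 0.974 within the water group, 0.900 to 0.949 within the flour group and 0.852 to 0.930 between them. Differences are therefore given first on centred values, meaning the log2 intensity minus the median of its own array, and then as deposited. What made the flour arrays dimmer was not tested.

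**Figure D1:**
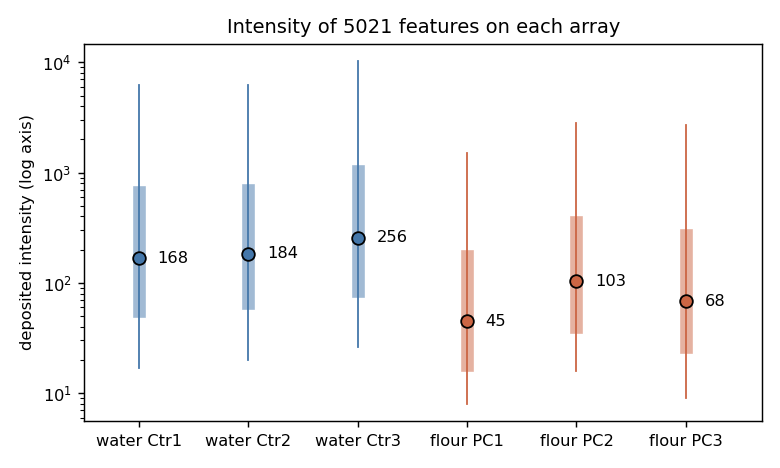
Deposited intensity of 5021 features on each of the 6 arrays, on a log axis. Points mark the median, which is printed beside them, thick bars the 25th to 75th percentile and thin lines the 5th to 95th percentile. The 3 flour medians of 45, 103 and 68 lie below the 3 water medians of 168, 184 and 256.

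With arrays centred, no feature passed the test for a difference between flour and water. In limma, fitted over all 18 arrays, 0 of 5021 features (0%) reached an adjusted p of 0.05, the smallest adjusted p was 0.640, and 269 features (5.36%) had an unadjusted p under 0.05, of which 131 (2.61%) were higher and 138 (2.75%) lower in flour mice. As deposited, limma called 0 features and 41 (0.817%) had an unadjusted p under 0.05. The call depends on which arrays set the spread. With the PC and Ctr arrays alone and no centring, 3519 features (70.1%) were called, 3447 of them (68.7%) lower. The same arrays centred gave 0, with a smallest adjusted p of 0.0511, and 1202 features (23.9%) had an unadjusted p under 0.05. Without PO array 2, on which 84.2% of values were under 16, the centred fit also called 0. Its smallest adjusted p was 0.213, and 691 features (13.8%) had an unadjusted p under 0.05. The middle 90% of all features lay between -0.94 and 1.60 in the centred difference, and the values of single genes below are to be read against that range.

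The authors' deposited table states a fold rule, which asks that every mouse lie above 2 times or below 0.5 times the mean of the controls. On the deposited intensities 43 features (0.856%) passed as higher and 2330 (46.4%) as lower. With arrays centred 165 (3.29%) passed as higher and 53 (1.06%) as lower, so the split between the directions turned. By another count, features whose flour and water mice did not overlap, 52 (1.04%) were higher and 3578 (71.3%) lower as deposited, against 709 (14.1%) higher and 787 (15.7%) lower with arrays centred.

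**Figure D2:**
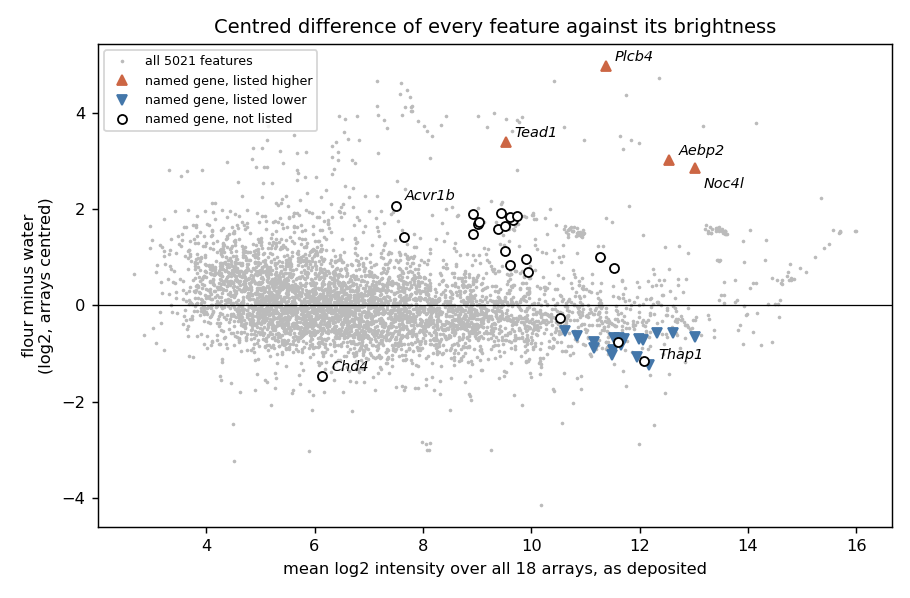
Centred difference between flour and water mice (log2, vertical axis) of 5021 features against their mean log2 intensity over all 18 arrays as deposited (horizontal axis). Triangles mark named genes that the authors list as higher (pointing up) or lower (pointing down), and open circles named genes that they do not list. Plcb4 has the highest value of all features at 4.97, and the 17 genes listed lower form a row of bright features between -1.23 and -0.52.

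The 4 genes that the authors list as higher act in signalling and in the nucleus. All 4 were higher in the centred mean, by 2.85 to 4.97 with a median of 3.21, and 0 of 4 passed limma. The fold rule was met as higher by 0 of 4 on the deposited intensities, against 0.856% of all features, and with arrays centred by 3 of 4, all but Tead1, against 3.29%. Plcb4 (feature 7153) encodes a phospholipase C that splits a membrane phosphoinositide into second messengers. Its intensities were 630, 40 and 8485 in Ctr mice 1, 2 and 3 and 8527, 14231 and 2181 in PC mice 1, 2 and 3. The groups overlapped, because Ctr mouse 3 was close to PC mouse 1 and above PC mouse 3, while Ctr mouse 2 was far below all others. Centred, Plcb4 averaged 6.56 ± 1.37 (log2, SD, n = 3) in flour mice and 1.58 ± 3.64 in water mice, a difference of 4.97 with a 95% interval from 2.20 to 7.75, the first in rank of 5021 features, and a limma adjusted p of 0.640. Without Ctr array 2 the difference was 3.08 and without Ctr array 3 it was 6.71, and as deposited it was 3.42.

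Tead1 (feature 28796) encodes the DNA-binding partner of the Hippo pathway's coactivators. Its intensities were 379, 35 and 3701 in Ctr mice 1, 2 and 3 and 2207, 2699 and 378 in PC mice 1, 2 and 3. As for Plcb4, mouse 2 was the lowest and mouse 3 the highest of the water group, mouse 3 was the lowest of the flour group, and the groups overlapped. The centred difference was 3.39 (95% interval 0.45 to 6.33, limma adjusted p = 0.811), with 1.75 without Ctr array 2 and 4.88 without Ctr array 3, and as deposited it was 1.84. The spread of the water mice, with an SD of 3.13, was therefore nearly as large as the difference.

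Of the 4 genes listed higher, Aebp2 and Noc4l were those whose flour and water mice separated once arrays were centred. Among all features 14.1% separated in that direction, and the authors chose the 4 genes on these same arrays. Aebp2 (feature 10260) encodes a cofactor of Polycomb repressive complex 2, which places a silencing mark on histones, and Noc4l (feature 33200) a nucleolar protein needed to build the small ribosomal subunit. Aebp2 intensities were 2358, 1449 and 6758 in Ctr mice 1, 2 and 3 and 9187, 5534 and 9684 in PC mice 1, 2 and 3. Noc4l intensities were 3122, 2557 and 10187 in Ctr mice 1, 2 and 3 and 12373, 7338 and 13378 in PC mice 1, 2 and 3. As deposited both genes were highest in mouse 3 and lowest in mouse 2 of each group, and Ctr mouse 3 lay above PC mouse 2 in both. Centred, PC mouse 1 was the highest flour mouse, at 7.67 for Aebp2 and 8.10 for Noc4l. PC mouse 3 was then at 7.15 and 7.62. The centred difference was 3.02 for Aebp2 (95% interval -0.81 to 6.85) and 2.85 for Noc4l (95% interval -0.92 to 6.62), each with a limma adjusted p of 0.811. As deposited the differences were 1.47 and 1.30, which are 2.77-fold and 2.46-fold. Centring raised the SD of the flour mice from 0.45 to 1.00 for Aebp2 and from 0.47 to 1.02 for Noc4l, and lowered that of the water mice from 1.14 to 0.87 and from 1.08 to 0.78. PC array 1, the dimmest by its median, read above PC array 2 for both genes.

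Because Aebp2 and Noc4l showed the same high and low mice, the sequence before their transcription starts is shown, as the 100 bases upstream of each start in RefSeq (GRCm38.p6), 5′ to 3′ on the strand of the gene. Capitals mark matches on either strand to 5 motifs. These are the CCAAT box, the GC box (GGGCGG), the TATA box (TATAAA), the core site of the aryl hydrocarbon receptor (GCGTG), and a part of the cAMP response element (TGACG), which was added after the sequences were seen.
Noc4l, chr5:110653383-110653482, minus strand: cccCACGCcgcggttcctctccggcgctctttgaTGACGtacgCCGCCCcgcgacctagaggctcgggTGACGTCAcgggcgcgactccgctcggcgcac
Aebp2, first start, chr6:140622563-140622662, plus strand: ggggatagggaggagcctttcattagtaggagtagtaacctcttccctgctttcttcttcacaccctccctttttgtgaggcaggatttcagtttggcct
Aebp2, next start, chr6:140624809-140624908, plus strand: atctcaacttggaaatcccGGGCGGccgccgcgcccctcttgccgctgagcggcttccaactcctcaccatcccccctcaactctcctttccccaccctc
Aebp2, last start, chr6:140626785-140626884, plus strand: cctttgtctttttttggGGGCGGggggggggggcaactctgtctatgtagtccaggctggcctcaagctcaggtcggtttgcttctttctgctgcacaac
The Noc4l window holds 5 matches: 1 to the GC box, 1 to the receptor core and 3 to the cAMP element, of which a pair on opposite strands overlaps in the stretch in capitals nearest to the start. Of the 3 Aebp2 windows the first holds none and the others hold 1 GC box each. Among 27025 RefSeq promoters, 1 window per gene, the GC box is found in 25.2%, the receptor core in 15.8%, the cAMP element in 10.7%, the CCAAT box in 19.6% and the TATA box in 5.95%. A match is a description of the letters and not of binding.

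The 17 measured genes that the authors list as lower were all lower in the centred mean, by a median of -0.71 with a range from -1.23 to -0.52, and 0 of 17 passed limma. As deposited their median was -2.26, against -1.55 for all features, and the flour and water mice did not overlap in any of the 17, where 71.3% of all features also did not overlap in that direction. With arrays centred the groups did not overlap in 14 of 17, the exceptions being H2-K2, Sv2b and Tti2, against 15.7% of all features. The authors chose these genes on the same arrays, so the counts given here are not independent of that choice. All 17 passed the fold rule as lower on the deposited intensities and 0 did once arrays were centred. These are bright features, with a median control intensity of 9528.3 against 2648.5 in the brightest of the 5 bins of all features, where the median centred difference was -0.14.

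**Figure D3:**
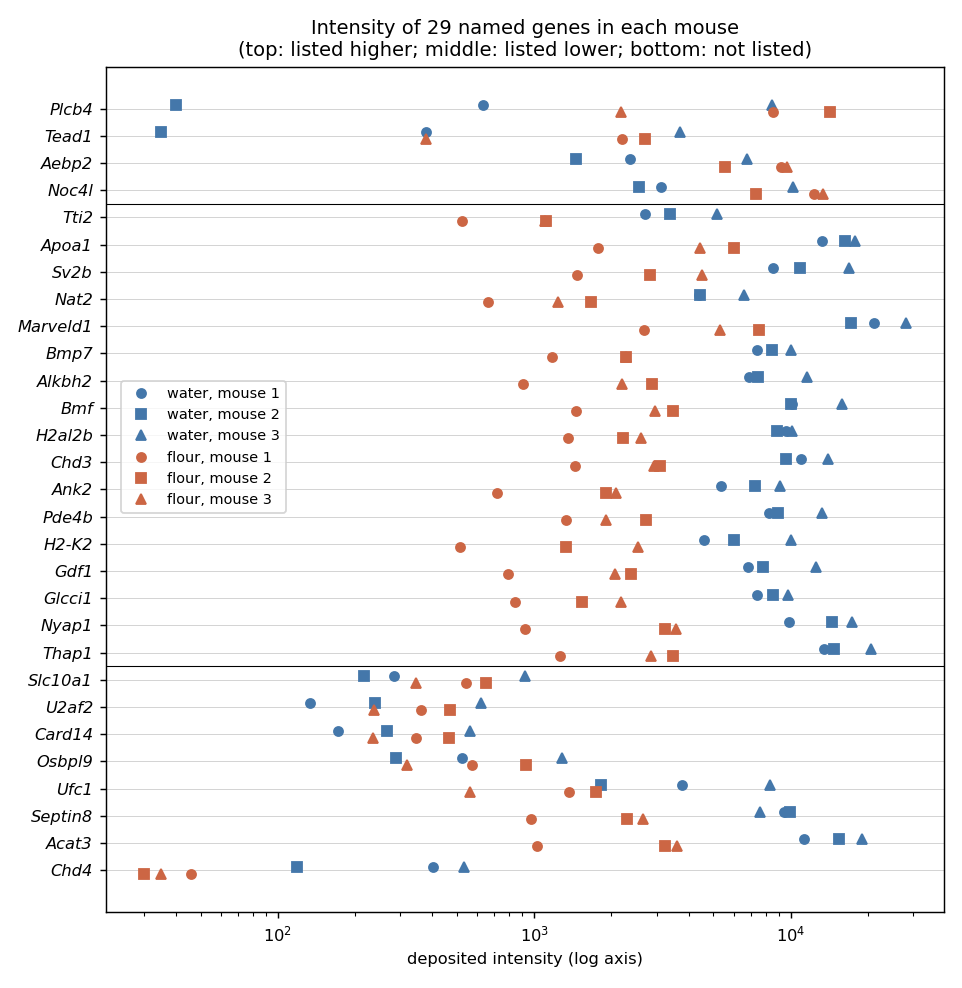
Deposited intensity (log axis) of 29 named genes in each of the 3 water and 3 flour mice, in blocks of genes listed higher, listed lower and not listed by the authors. In the middle block every flour mouse lies to the left of every water mouse, and PC mouse 1, on the dimmest array, is the lowest of each row.

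Among genes of transcription and cell death, Thap1 (feature 28176), a zinc-finger transcription factor, had the most negative centred difference of the listed genes. Its intensities were 13532, 14696 and 20488 in Ctr mice 1, 2 and 3 and 1260, 3470 and 2852 in PC mice 1, 2 and 3. Once centred the 3 water mice were at 6.33, 6.32 and 6.32, almost the same level, and the flour mice at 4.81, 5.07 and 5.39, so the groups were well apart. The centred difference was -1.23 (95% interval -2.97 to 0.50, limma adjusted p = 0.811), which is 2.35-fold lower, and without any single array it stayed between -1.38 and -1.09. Bmf (feature 2939), a BH3-only gene that promotes apoptosis, read 10129, 10058 and 15870 in water mice and 1457, 3484 and 2970 in flour mice, and its centred difference was -0.70. Glcci1 (feature 820), a gene induced by glucocorticoids, read 7399, 8559 and 9731 in water mice and 840, 1540 and 2188 in flour mice, with a centred difference of -1.04. The groups did not overlap for either gene, as deposited or centred. Alkbh2, which repairs alkylated DNA bases, differed by -0.68 and Chd3, a chromatin-remodelling helicase, by -0.73.

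Apoa1, Nat2 and the secreted factor Bmp7 represent fat transport, the handling of foreign compounds and growth factor signalling among the listed genes. Apoa1 (feature 20313) encodes the main protein of high-density lipoprotein, which intestine and liver both make. Its intensities were 13296, 16287 and 17841 in Ctr mice 1, 2 and 3 and 1777, 6001 and 4447 in PC mice 1, 2 and 3. The groups were apart as deposited, and after centring by a small step only, with the highest flour mouse at 6.03 and the lowest water mouse at 6.12. The centred difference of Apoa1 was -0.57 (95% interval -2.35 to 1.22, limma adjusted p = 0.883), and without PC array 1 it was -0.35. Nat2 (feature 37799), an arylamine acetyltransferase that modifies foreign amines, was at 4376, 4436 and 6571 in water mice and 662, 1668 and 1241 in flour mice. Its water mice were tight after centring (4.66 ± 0.06, SD, n = 3) and its flour mice lower (4.03 ± 0.16), a difference of -0.63 with a limma adjusted p of 0.845. Nat2 is the only named gene of a list of 7 for the metabolism of foreign compounds, so that list cannot be described further. Bmp7 (feature 25000), a ligand of the transforming growth factor family, differed by -0.67.

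The list of lipid and bile acid handling holds 12 genes, of which 3 were measured. Acat3 (feature 21811), an acetyl-CoA acetyltransferase close to Acat2, read 11253, 15502 and 18972 in water mice and 1027, 3227 and 3619 in flour mice, with a centred difference of -1.15. Its groups did not overlap on either scale. The authors' table leaves Acat3 at 0 for PC mice although all 3 lie below 0.5 times the control mean in the deposited intensities, as is also so for Septin8, Ufc1 and Chd4. Slc10a1 (feature 5199), a sodium-dependent bile acid transporter best known from liver, went the other way, with 283, 217 and 918 in water mice and 543, 648 and 346 in flour mice. Ctr mouse 3 was above all flour mice as deposited, and the groups separated only with centring, by 1.92 (95% interval -0.64 to 4.48). Osbpl9, an oxysterol-binding relative, differed by 1.48 centred and by -0.07 as deposited, so its direction turned with the scale.

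Immune genes did not share a direction. H2-K2 (feature 26642), a class I histocompatibility gene with near-identical relatives whose RNA its probe may also bind, read 4600, 5988 and 10045 in water mice and 512, 1331 and 2537 in flour mice. As deposited all flour mice were below all water mice, but PC mouse 3 reached the water level once arrays were centred, at 5.22 against 4.78 to 5.29. The centred difference of H2-K2 was -0.89, with -0.57 without PC array 1 and -1.43 without PC array 3. Csf2 (feature 38320), the cytokine that drives granulocytes and macrophages, read 320, 353 and 1056 in water mice and 595, 873 and 283 in flour mice, overlapping as deposited with a difference of 0.10, and 1.65 centred. Cd2, an adhesion molecule of T cells, read 530, 445 and 970 in water mice and 539, 664 and 271 in flour mice, a difference of -0.41 as deposited and 1.14 centred. Card14, a scaffold of NF-kB signalling, differed by 0.19 as deposited and 1.74 centred. Of the 4 measured genes of a list of 7 immune genes, 3 were thus higher centred and 0 passed limma.

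Genes that the authors place under the nervous system include synaptic and membrane proteins as well as general factors. Nyap1 (feature 38308), a neuronal phosphoprotein that binds phosphoinositide 3-kinase, read 9847, 14434 and 17283 in water mice and 918, 3230 and 3557 in flour mice. Sv2b (feature 28212), a synaptic vesicle glycoprotein, read 8502, 10855 and 16868 in water mice and 1465, 2836 and 4525 in flour mice. For Nyap1 the groups were apart on both scales, while for Sv2b PC mouse 3 lay above all water mice once centred. The centred differences were -1.07 and -0.57, and neither passed (limma adjusted p = 0.811 for both). Without PC array 3 Sv2b was at -0.96 and without PC array 2 at -0.32. Pde4b, which breaks down cAMP, differed by -0.83, with water mice at 5.64 ± 0.05 (SD, n = 3) and flour mice at 4.81 ± 0.07. Gdf1, a growth factor, differed by -0.92, Marveld1, a membrane protein, by -0.65, Tti2, which stabilises kinases of the DNA damage response, by -0.52, and Ank2, which ties membrane proteins to the cytoskeleton, by -0.77. H2al2b, a histone variant known from testis, differed by -0.71.

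Chromatin genes also split. Chd4 (feature 15041), a helicase of a repressive remodelling complex, read 402, 119 and 534 in water mice and 46, 30 and 35 in flour mice. The flour readings were dim, close to or below the medians of PC arrays 1, 2 and 3 (45, 103 and 68). On these arrays 20.6%, 4.7% and 12.9% of values were under 16. As deposited the groups were apart, while centred PC mouse 1 lay above Ctr mouse 2. The centred difference of -1.47 (95% interval -3.88 to 0.95, limma adjusted p = 0.811) moved to -2.06 without Ctr array 2 and to -1.03 without PC array 2. With Aebp2 higher and Chd3 lower, 2 of the 4 genes of the chromatin list were higher and 2 lower in the centred mean. The remaining gene is Uhrf1bp1, whose role in chromatin was not checked here. It differed by 1.43 centred (95% interval -2.48 to 5.34) and by -0.12 as deposited. On the deposited scale 1 of the 4 was higher and 3 were lower. The ubiquitin-like modifier Ufm1 and its conjugating enzyme Ufc1 differed by 0.78 and -0.26, each within a wide spread, and Ufc1 changed sign when Ctr array 3 or PC array 3 was left out.

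**Figure D4:**
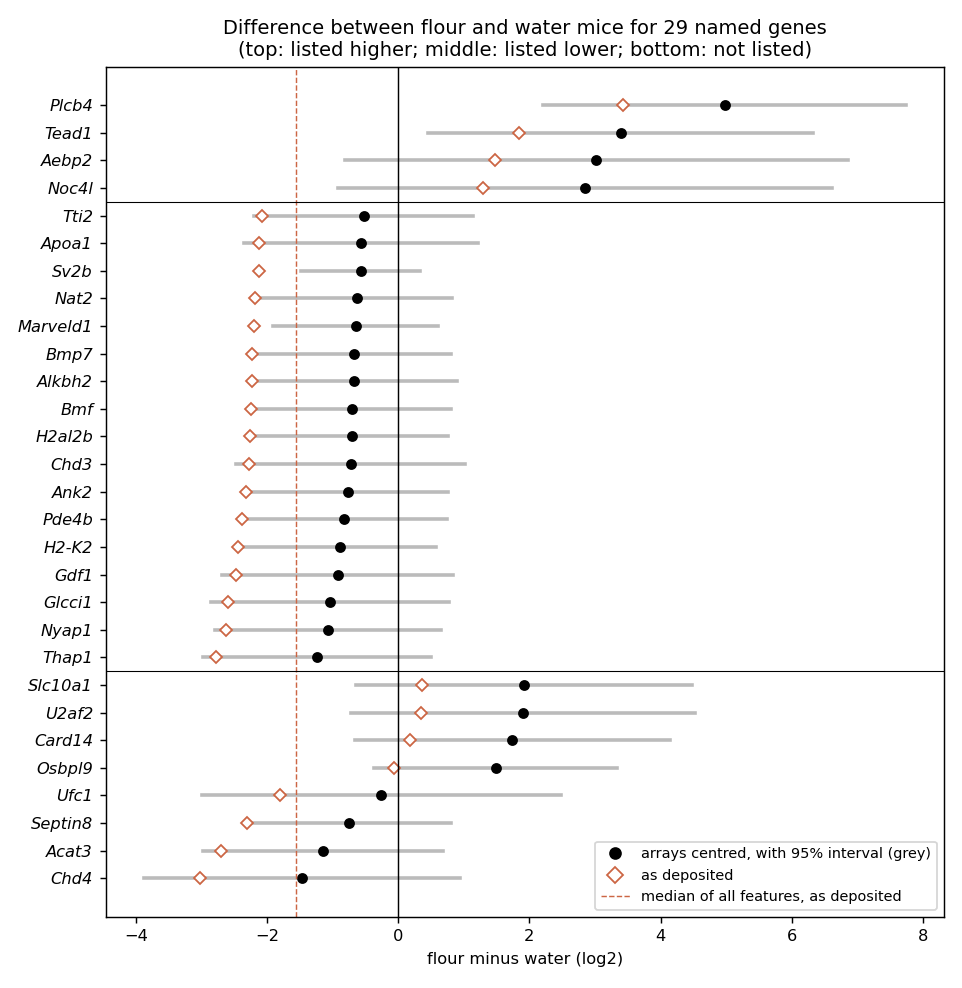
Difference between flour and water mice (log2) of the 29 named genes. Filled points are centred values with their 95% interval in grey, open diamonds are values as deposited, and the dashed line marks the median of all features as deposited at -1.55. The intervals of Plcb4 and Tead1 lie above 0 before adjustment, and those of the other 27 genes include 0.

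The 22 measured genes that the authors do not list for PC mice were mostly higher once centred. Of these, 18 were higher and 4 lower, with a median of 1.46, against 10 higher and 12 lower as deposited with a median of -0.09. In 13 of the 22 the flour mice lay above all water mice once centred, against 14.1% of all features, and 0 passed limma. U2af2, which recognises the end of introns in splicing, read 133, 239 and 618 in water mice and 363, 471 and 237 in flour mice. Acvr1b, a receptor for activin, read 56, 67 and 204 in water mice and 148, 214 and 71 in flour mice. In both genes mouse 3 was the highest of the water group and the lowest of the flour group, and the groups overlapped as deposited. Their centred differences were 1.90 and 2.07. These unlisted genes are known only because the authors list them in other groups, by folds against the same 3 water mice. They are therefore not a sample of all genes, and the count of 13 of 22 is not independent of how they were chosen.

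The numbers behind the authors' fold changes did not all equal the deposited intensities. Each deposited log2 fold is the ratio of a mouse to the mean of 3 controls, and whole numbers could be recovered from it for every gene. Over the 21 listed genes with a value on every array and the 3 PC mice, 37 of 63 recovered numbers equalled the deposited intensity, 24 differed by an exact multiple of 1000 and 2 by 500. In PC mouse 1 only 3 of 21 were equal, and 12 were exactly 1000 above the deposited intensity. In PC mouse 2, 16 of 21 were equal, and in PC mouse 3, 18 of 21. The control sums differed by an exact multiple of 1000 in 16 of the 21 genes and were equal in 1, H2al2b.

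Several gaps fell on genes listed as higher. For Plcb4 the number behind the fold of PC mouse 2 is 4231, where the deposited intensity is 14231, and the control sum is 2224, where the 3 deposited intensities add up to 9155. For Tead1 the number behind the fold of PC mouse 3 is 2378, where the deposited intensity is 378. For Noc4l in PC mouse 2 the numbers are 12338 and 7338. Genes listed lower had gaps as well. For Apoa1 in PC mouse 1 the numbers are 4777 and 1777. The control sum behind the folds of Marveld1 is 76652, where the 3 deposited intensities add up to 66652. The sign of the fold was the same in 61 of 63 cells, the exceptions being PC mouse 3 for Plcb4 and Tead1. From the intensities the log2 folds of PC mouse 3 are -0.48 for Plcb4 and -1.86 for Tead1, whereas the authors' deposited table gives 2.10 and 1.83. In PC mouse 1 the authors' folds lay nearer to 0 for the genes listed lower, and over the 21 genes they were above the folds from intensities by a median of 1.03 on the log2 scale. Which of the tables holds the readings of the arrays cannot be told apart from the files used here, and the origin of the differences was not tested.

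**Figure D5:**
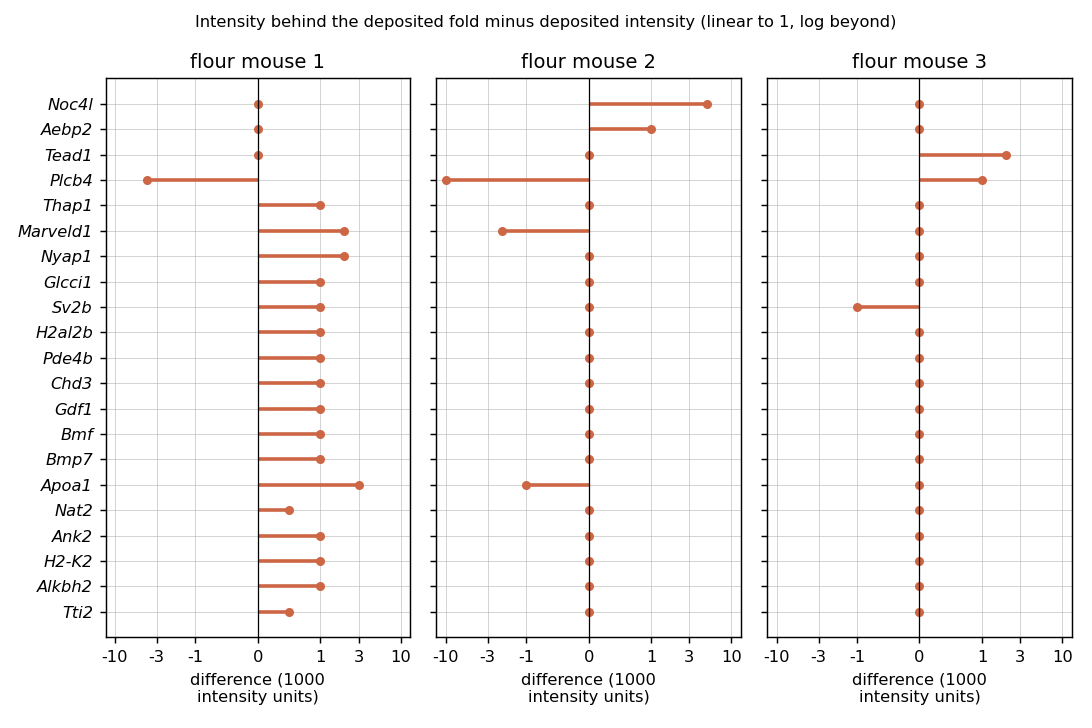
Number recovered from the authors' deposited fold minus the deposited intensity, in units of 1000, for 21 listed genes in each flour mouse. The axis is linear up to 1 and logarithmic beyond. In flour mouse 1 the points of 17 genes lie above 0, 12 of them at exactly 1, while in flour mice 2 and 3 most points are at 0.

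For 6 further listed genes the row has a blank cell, and only the authors' deposited folds are given. In the authors' deposited table the mean over the PC mice is -1.56 for S100a14, a calcium-binding protein of epithelia, and -1.52 for Apom, an apolipoprotein. It is -1.86 for Trbv13-1, a T cell receptor segment, and -1.91 for Plscr1, an interferon-induced scramblase. The same table gives -1.74 for Shank3, a synaptic scaffold, and -1.86 for Katnal2, a microtubule-severing relative. In these rows 0 of 18 recovered numbers equalled the intensity in the column of the same mouse, and 9 equalled the intensity in the column before it, so such rows were left out of every fit. Over all 27 genes the authors' mean folds ran from 1.46 to 2.41 for the 4 higher and from -2.34 to -1.52 for the 23 lower.

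Fresh conventional flour was next set against the groups most like it, each with 3 mice, by contrasts of the same limma fit. None of the 3 contrasts gave a call. Against PO, 0 features (0%) passed, 752 (15%) had an unadjusted p under 0.05 and the smallest adjusted p was 0.162. Plcb4 read 339, 29 and 510 in PO mice 1, 2 and 3 and every PC mouse was above every PO mouse once arrays were centred. The centred difference was 4.92 (95% interval 2.15 to 7.69, limma adjusted p = 0.175). Tead1, at 54, 12 and 154 in PO mice, was likewise apart, by 4.51 with a limma adjusted p of 0.175, and so was Osbpl9, by 2.52 with 0.200. Osbpl9 read 348, -1 and 1350 in PO mice, and the negative reading was set to 1 before the log. These were the 3 of 43 named genes in which PC mice lay above all PO mice, against 10.4% of all features, and in 0 of 43 did they lie below, against 6.25%. Aebp2 (6659, 5843 and 4992 in PO mice) and Noc4l (12082, 8681 and 6229) differed by 0.14 and -0.01, with intervals from -3.69 to 3.97 and from -3.78 to 3.76. Of the 17 genes listed lower, 16 were higher in PC than in PO mice, with a median centred difference of 0.74 beside 0.17 for all features.

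These values depend on PO array 2, on which 84.2% of values were under 16. Without it the centred difference of Aebp2 was 1.88 and that of Noc4l 1.72, with limma adjusted p-values of 0.580 and 0.608. Osbpl9 then differed by 1.11 (limma adjusted p = 0.271), Plcb4 by 5.37 and Tead1 by 5.27, the latter pair with limma adjusted p-values of 0.118 and 0.128. All 17 genes listed lower turned to lower in PC mice without that array, with a median of -0.51 beside 0.04 for all features, and 0 of 17 were higher. Without PO array 2 again 0 features passed, with a smallest adjusted p of 0.116, while without PO array 1 the count was 3.

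Against PCS, 0 features (0%) passed and 24 (0.478%) had an unadjusted p under 0.05. The flour and stored-flour mice overlapped in all 43 named genes on centred values, where 1.87% of all features were apart with fresh flour higher and 1.08% with it lower. Plcb4 read 4053, 10710 and 39495 in PCS mice 1, 2 and 3, a centred difference of 0.60 with an interval from -2.17 to 3.38. Thap1 read 3654, 5843 and 21443, a difference of -0.23, and Apoa1 differed by -0.26 with an interval from -2.04 to 1.53. For the 17 genes listed lower, 9 higher and 8 lower, the median difference between fresh and stored flour was 0.03, with a range from -0.26 to 0.28, beside 0.12 for all features. These intervals leave room for differences of more than 2-fold in either direction.

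Against ADI, 0 features (0%) passed and 48 (0.956%) had an unadjusted p under 0.05. Plcb4 read 36613, 5063 and 3881 in ADI mice 1, 2 and 3, a centred difference of 0.22 with an interval from -2.55 to 2.99. Aebp2 read 779, 3938 and 15679 and Noc4l 1115, 5295 and 19098 in ADI mice, so that the lowest ADI mouse was far below the PC mice and the highest above them on the deposited scale. Their differences were 1.82 and 1.85, with a limma adjusted p of 1.00 for each. Of the 17 genes listed lower, 0 were higher and 17 lower than in ADI mice, with a median centred difference of -0.23 beside 0.06 for all features. Marveld1 and Prkar1a, which holds protein kinase A inactive until cAMP binds, were lower in every PC mouse than in every ADI mouse on centred values, and Recql4, a DNA helicase, and Crk, a signalling adaptor, were higher. That is 2 of 43 in each direction, against 2.05% of all features for lower and 4.24% for higher. The comparisons with water and with these groups share the PC mice, so their values are not independent of each other. The 17 genes listed lower were chosen by the authors for low values in these same PC mice. Their direction against the other groups is therefore not independent of that choice.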

How the data were processed

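The deposited intensity values are linear whole numbers, made with Agilent Feature Extraction per the submitters' processing notes. Its version, its background step and the signal column used are not given in those notes as held here. The authors' deposited table gives log2 fold changes per mouse against the mean of the controls for 51 genes. All 51 symbols were found in the RefSeq gene table of GRCm38.p6, and promoter sequences are from RefSeq; other features carry a number only.

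Rows with a blank cell (1893 of 6914) were left out. Values were set to at least 1, log2 transformed and centred on the array median. A model of group means over 18 arrays was fitted with limma (version 3.58.1 under R 4.3.3), using eBayes with no trend and Benjamini-Hochberg adjustment at 0.05, for 4 contrasts (PC against Ctr, PO, PCS and ADI); values as deposited were fitted beside them. SDs cover the spread between the mice of a single group. Intervals rest on the spread that limma fits over all 18 arrays, PO array 2 included. They are therefore not a measure of the spread of flour and water mice alone. For Thap1 the centred SD was 0.006 in Ctr mice and 0.292 in PC mice, but 2.497 in PO mice. The number of arrays also limits precision. The labels do not say how litters or cages were assigned. The samples share only a replicate number: deviations of same-numbered Ctr and PC arrays correlated at 0.23, 0.15 and -0.13.

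Genes named are those the authors list for PC mice with a value on every array (21), and of the other named genes the 4 higher and 4 lower with the smallest p. Csf2, Cd2, Acvr1b, Ufm1, Prkar1a, Recql4, Crk and Uhrf1bp1 were named after their values were seen, and lists are described by counts and medians. Members and lists were chosen with earlier results of these data known. Whole numbers behind the authors' folds were found as the smallest control sum up to 400000 that made all 3 numbers whole within 1e-06, or its multiple up to 10 times with the most cells equal to the intensities. The fit was also run on simulated data, and no statement here about its accuracy rests on that run. Python 3.11.15, numpy 2.4.6, pandas 2.3.3 and scipy 1.17.1 were used.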

Additional observations from a re-analysis of the deposited data

How the results depend on the processing

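The contrast of PC against Ctr was rerun under 11 other settings and without each of the 6 arrays. No feature passed in 9 of the 11 settings, among them centring on the 75th percentile, quantile normalization, a floor of 16, dim features left out and the fit without PO array 2. The exceptions were the PC and Ctr arrays alone as deposited, with 3519 features, and the same arrays centred with the replicate block, with 76 (1.51%), of which 75 were higher and Aebp2 and Noc4l were 2 (limma adjusted p = 0.0411). The replicate block over all arrays gave 0. Whether the replicate numbers pair the mice cannot be told, since the labels do not say so and the correlations of deviations do not decide it. Ctr1 correlated best with PC1 (0.234), and Ctr2 about equally with PC2 (0.146) and PC3 (0.145). Ctr3 correlated best with PC1 (0.203) and at -0.127 with PC3. Without single arrays the count was 0 to 1, the 1 coming without Ctr array 2 and carrying no name, 0 to 3 for PC against PO, and 0 for PC against PCS and ADI. The median difference over all features ran from -1.83 to -1.27. The count past the fold rule fell from 165 to 43 for higher and rose from 53 to 2330 for lower on values as deposited, and without single arrays ran from 167 to 417 and from 45 to 194. Of 493 values of the 29 named genes under these alternatives, 489 kept their direction. The exceptions were Ufc1, at 0.12 without Ctr array 3 and 0.23 without PC array 3 (and down to -0.74 without Ctr array 2), and Osbpl9, at -0.065 as deposited in both the full fit and that of PC and Ctr arrays alone. The count of 489 does not measure stability, because several settings cannot change a centred difference. These are the fits without PO array 2, with centred PC and Ctr arrays alone, with the replicate block, without dim features and with a changed eBayes step. Most of these genes were also chosen by the authors on the same arrays. Against PO, Noc4l went from -0.01 to 1.72 and the median of the 17 genes listed lower from 0.74 to -0.51 without PO array 2. The fits of single genes without PO array 2 and the single-array fits of the other contrasts and of the fold rule were added after seeing the data. The causes of these changes were not tested.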
